A study of Mus musculus with 5 samples.

Results

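Skeletal muscle fiber genes encode the contractile machinery of striated voluntary muscle and the proteins that trigger, fuel and maintain it. The 35 genes described here were taken by name from a list of fast, embryonic, perinatal and extraocular myosins, other sarcomere genes, calcium handling and energy genes, and the factors that switch on the muscle program. They stood on 34 of the 24768 loci in the deposited table, because Myh1 and Myh3 shared 1 locus and could not be separated. RNA came from eyes of adult mice in 2 groups. Wild-type uveal tissue gave 2 libraries. Tumor tissue gave 3 libraries and came from the eyes of AAV5-Cre;Lats1/2 fl/fl mice, whose loxP-flanked Lats1 and Lats2 genes (Hippo pathway kinases) were targeted by Cre recombinase delivered with an adeno-associated virus, a vector that is not by itself restricted to melanocytes. The series title calls the tumors uveal melanoma. The labels do not say whether libraries came from separate mice or pools, so p-values measure the spread between these libraries only.

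A skeletal muscle fiber contracts when myosin heavy chains of the thick filament pull on actin of the thin filament, after calcium released from the sarcoplasmic reticulum has moved the troponin complex. Fibers differ by the heavy chain they hold: Myh4, Myh1 and Myh2 encode the fast 2B, 2X and 2A chains, and Myh3 and Myh8 the embryonic and perinatal chains that developing and regenerating fibers use. In the orbit, the extraocular muscles that turn the eyeball keep several of these chains in adult life together with Myh13, a chain found in few other muscles. The muscles inside the uvea, those of the iris and ciliary body, are smooth muscle in mammals and use other genes.

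The libraries held 12687703 to 14368272 estimated fragments. Level is given as FPKM, fragments scaled for transcript length and depth, so that levels of different genes can be set side by side. Tumor values stand in the order of tumor libraries 1, 2 and 3. In bulk tissue, fewer cells of a type and less RNA per cell cannot be told apart. Lats1 stood at 7.55 and 8.86 FPKM in wild type, then 3.43, 3.90 and 2.94 in tumor libraries 1, 2 and 3, and Lats2 at 20.1 and 20.2 against 12.6, 17.0 and 14.3. Lats1 fell in edgeR's test (log2 fold change −1.21, SE 0.18, adjusted p = 0.0115) and Lats2 did not pass (−0.62, SE 0.19, adjusted p = 0.0577), although each had all 3 tumors below both wild-type libraries. Melanocyte markers, which a uveal library should hold, summed to 6648 and 6425 FPKM in wild type but only to 11.7, 26.9 and 4.36 FPKM in the tumors. Photoreceptor markers, which belong to the neighbouring retina, summed to 1257 and 1358 FPKM in wild type and to 1.65, 4.81 and 5.53 in the tumors.

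Tumor library 1 stood apart in muscle content before any gene was tested. The member loci held 0.163% and 0.167% of the named fragments in wild type, 2.18% in tumor library 1 (286253 fragments, 95% Wilson interval 2.17% to 2.19%), 0.174% in tumor library 2 and 0.111% in tumor library 3. These intervals cover counting error only. By total amount, then, tumor libraries 2 and 3 lay close to wild type and tumor library 1 far above it. Of the 34 member loci, 32 had their highest FPKM in tumor library 1. On TMM-scaled fragment counts, a different measure, 17.5% of all 15241 tested loci were highest in that library. The exceptions by FPKM were Actn3 and Pygm, which were highest in wild-type library 2. On the TMM-scaled counts Pygm was highest in tumor library 1, by 0.014 on the log2 scale. Relative to the wild-type mean, the median member stood 15.0-fold higher in tumor library 1, 1.37-fold in tumor library 2 and 1.03-fold in tumor library 3. The medians of the latter libraries hide a wide range, from 0.068-fold to 26.6-fold in tumor library 2 and from 0.030-fold to 37.4-fold in tumor library 3. Member tests are therefore given with and without tumor library 1. Acta1, Ckm, Mylpf and Tnnt3, members used as a check of muscle, were present in all 5 libraries. The lowest value was 20.8 FPKM, for Ckm in tumor library 3. Because these genes are members, their presence gives no independent support to the name of the list.

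The myosin heavy chain genes lie next to each other on chromosome 11, in the order Myh3, Myh2, Myh1, Myh4, Myh8 and Myh13, all on the plus strand within 293 kb (chr11:67078300-67371586, GENCODE M21 on GRCm38, the build named mm10 in the submitters' notes). The table's locus of Myh1 and Myh3 spans chr11:67078191-67225000 and the table gives Myh2 the same interval, so the assignment of fragments among these genes is uncertain. The chains are close paralogs, and how shared fragments were divided is not given in the sources used here. Promoters of 4 members are shown because neighbouring heavy chain genes differed from each other in the tumors, and because Chrna1 had the largest fold change after Myog among the tested members with all libraries (Myod1 exceeded it without tumor library 1). Each is 250 bases before to 50 after the RefSeq start (GRCm38.p6), 5′ to 3′ on the gene's strand, with matches to 3 muscle-linked motifs in capitals. Myh1 lies at chr11:67199852-67200151, Myh4 at chr11:67237562-67237861, Myh8 at chr11:67276874-67277173 (all plus strand) and Chrna1 at chr2:73580289-73580588 (minus strand).
Myh1: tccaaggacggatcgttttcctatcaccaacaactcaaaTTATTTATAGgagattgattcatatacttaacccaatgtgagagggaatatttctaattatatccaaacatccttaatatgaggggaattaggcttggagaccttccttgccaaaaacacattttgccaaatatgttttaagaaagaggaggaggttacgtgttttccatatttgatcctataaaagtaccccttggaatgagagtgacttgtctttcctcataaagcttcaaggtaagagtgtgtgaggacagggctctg
Myh4: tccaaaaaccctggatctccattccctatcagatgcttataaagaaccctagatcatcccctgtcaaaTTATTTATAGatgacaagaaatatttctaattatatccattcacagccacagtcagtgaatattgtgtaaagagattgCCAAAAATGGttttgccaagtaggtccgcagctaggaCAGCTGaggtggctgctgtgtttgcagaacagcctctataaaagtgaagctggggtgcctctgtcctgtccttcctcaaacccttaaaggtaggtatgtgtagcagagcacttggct
Myh8: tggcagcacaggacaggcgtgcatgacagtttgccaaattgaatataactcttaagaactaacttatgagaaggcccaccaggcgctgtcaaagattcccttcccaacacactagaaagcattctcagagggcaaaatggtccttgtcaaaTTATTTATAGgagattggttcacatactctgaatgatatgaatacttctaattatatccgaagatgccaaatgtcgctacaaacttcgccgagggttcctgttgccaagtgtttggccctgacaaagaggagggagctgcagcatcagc
Chrna1: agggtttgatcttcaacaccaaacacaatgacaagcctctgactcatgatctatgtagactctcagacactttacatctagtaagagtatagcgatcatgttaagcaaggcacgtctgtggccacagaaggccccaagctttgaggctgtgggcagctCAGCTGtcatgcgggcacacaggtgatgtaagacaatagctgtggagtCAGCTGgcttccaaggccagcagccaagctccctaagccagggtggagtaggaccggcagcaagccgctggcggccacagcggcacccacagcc
The 3 myosin windows share the run TTATTTATAG, a match to the MEF2 consensus, which begins 211 bases before the start in Myh1, 182 in Myh4 and 99 in Myh8. The windows of Myh2, Myh3 and Myh13, the other listed heavy chain genes, are not shown and held no match to that consensus. MEF2 factors are partners of the myogenic factors in muscle transcription. Myh4 also holds a CArG box, the motif of serum response factor, 104 bases before the start and the E-box CAGCTG, a motif of MyoD-type factors, 67 bases before it. Chrna1 holds that E-box at 92 and at 44 bases before the start. Both strands were searched, and the matches shown do not overlap each other. Of all 32817 RefSeq windows, 16.3% hold the E-box, 3.19% the MEF2 consensus and 1.63% a CArG box. Among the 27 members with a window, 13 held the E-box, 5 the MEF2 consensus (Ttn, Myh1, Myh4, Myh8 and Pvalb) and 4 a CArG box (Acta1, Myh4, Myh13 and Ldb3). Members without a window were Tnnt3, Tnni2, Neb, Actn3, Myoz1, Tcap, Myod1 and Myf6. A match describes letters, not a bound site.

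Across all 5 libraries, few muscle genes passed the test, and tumor library 1 lay far from the other tumors at most of them. Of 33 tested member loci, 2 rose and 0 fell in edgeR at an adjusted p under 0.05, while 18.7% of all tested loci were called higher and 15.4% lower. At an unadjusted p under 0.05 there were 6 higher and 0 lower, beside 7309 of all 15241 tested loci in either direction. Those that rose were Myh2 and Myog. Both calls ended, like every other call, when either wild-type library was left out, and under the replicate block (adjusted p = 0.0545 and 0.0853). DESeq2 called 17 of 31 loci higher and 0 lower, against 24.2% and 21.5% of all loci. Its calls were Myh2, the locus of Myh1 and Myh3, Myh8, Myl1, Acta1, Neb, Mybpc1, Ttn, Actn2, Tcap, Ldb3, Ryr1, Mb, Chrna1 and all 3 myogenic factors. The median log2 fold change of the members was 2.57 (range −1.34 to 6.56), beside 0.048 over all tested loci. Tumors lay all above wild type at 16 of 34 loci and all below at 1, Actn3, where 33.7% of all tested loci lay above and 35.9% below.

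Without tumor library 1, members were called in both directions, as were loci in general. In edgeR 6 loci were called higher and 7 lower of 33, against 15.9% and 13.7% of all loci, and the median log2 fold change was 0.47 (range −3.45 to 4.93), beside 0.020 over all loci. The higher calls were Myh2, Neb, Actn2, Ryr1, Myog and Chrna1. The lower calls were Mybpc2, Actn3, Myoz1, Pvalb, Ckm, Pygm and Trim63. DESeq2 called 9 higher and 9 lower in the same 4 libraries, a setting chosen after seeing the data, against 20.3% and 19.0% of all loci. Beside edgeR's higher calls these were the locus of Myh1 and Myh3, Mybpc1 and Mb, and beside its lower calls Myh4 and Tnni2. By level, tumor libraries 2 and 3 both exceeded wild type at 16 of 34 loci and both fell short of it at 14, where the shares over all tested loci were 37.4% and 40.3%. Differences in both directions were thus not particular to these genes. The plot of each gene's level by library shows these positions.

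**Figure D1:**
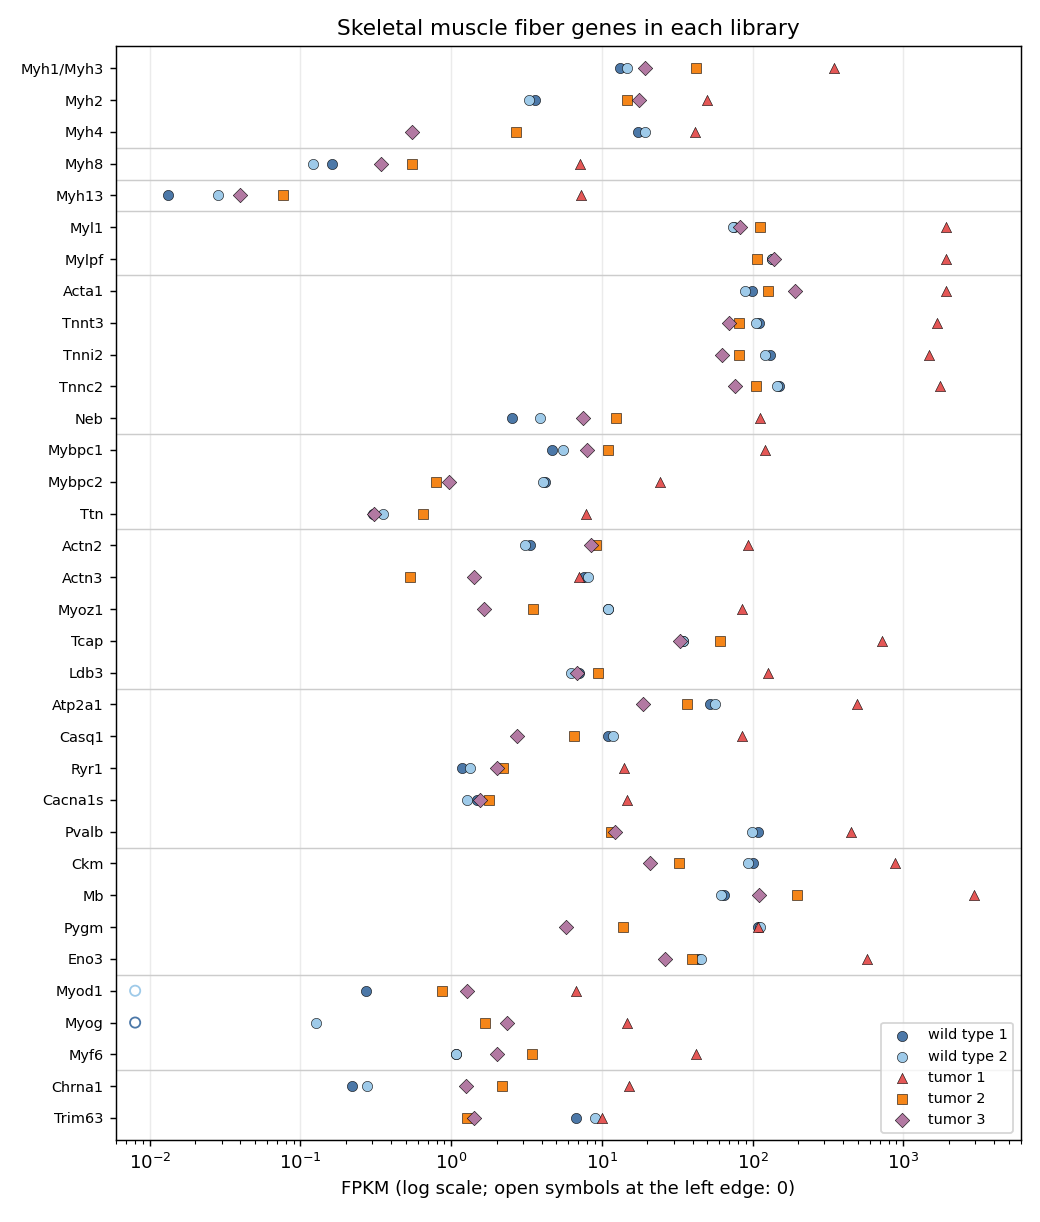
Level of each member locus (rows, ordered by role and separated by lines between roles) in the 5 libraries, as FPKM on a log axis; each symbol is 1 library and open symbols at the left edge mark a value of 0. Tumor library 1 (red triangles) is the highest at 32 of 34 loci, while tumor libraries 2 and 3 lie to the right of wild type for Myh2, Myog and Chrna1 and to its left for Myh4, Pvalb and Pygm.

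Among the fast myosin heavy chains, Myh2 was higher and Myh4 lower in tumor libraries 2 and 3, whereas tumor library 1 had the highest level of both. Myh2 measured 3.63 and 3.30 FPKM in the wild-type libraries, against 50.03, 14.6 and 17.7 FPKM in the tumors. All tumors lay above both wild-type libraries, and the lowest of them exceeded wild type by more than 4-fold (4.23-fold over the wild-type mean in tumor library 2). Myh2 rose with all libraries (log2 fold change 3.04, SE 0.67, adjusted p = 0.0285) and without tumor library 1 (2.27, SE 0.16, adjusted p = 0.0137). Myh4 measured 17.3 and 19.3 FPKM in the wild-type pair and 41.6, 2.69 and 0.551 FPKM in the tumor libraries. Tumor library 1 was thus the highest and the other tumors the lowest, with tumor library 3 at 0.030 of the wild-type mean. Myh4 did not pass with all libraries (−0.23, SE 1.65, adjusted p = 0.924) nor without tumor library 1 (−3.43, SE 0.85, adjusted p = 0.0552), where DESeq2 called it lower (adjusted p = 9.92e-05). The shared locus of Myh1 and Myh3 measured 346, 42.3 and 19.3 FPKM in the tumors, compared with 13.1 and 14.8 FPKM in wild type, above wild type in each. It did not pass in edgeR with (3.34, SE 1.45, adjusted p = 0.133) or without tumor library 1 (1.19, SE 0.44, adjusted p = 0.113), and DESeq2 called it higher with all libraries (adjusted p = 0.0107).

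The perinatal and extraocular chains were scarce in wild type. Myh8 measured 0.163 and 0.121 FPKM in the wild-type libraries, against 7.13, 0.551 and 0.340 FPKM in the tumors, on 22 fragments in wild type as a whole. Its ratio to wild type was 51.9 in tumor library 1 (95% counting interval 33.97 to 83.5), 3.997 in tumor library 2 (2.36 to 6.98) and 2.45 in tumor library 3 (1.35 to 4.52), and it did not pass in edgeR with (4.27, SE 1.73, adjusted p = 0.114) or without tumor library 1 (1.69, SE 0.48, adjusted p = 0.0715). DESeq2 called it higher with all libraries only (adjusted p = 0.00596). Myh13, the extraocular chain, had 1 and 2 fragments in wild type and 608, 6 and 3 in the tumors. Only in tumor library 1 did its counting interval exclude a ratio of 1: the ratio was 383 (130 to 1863) there, 3.82 (0.817 to 23.6) in tumor library 2 and 2.00 (0.268 to 14.9) in tumor library 3. Myh13 was not kept by the filter on low counts and has no test. At 0.0400 to 0.0761 FPKM, tumor libraries 2 and 3 held almost no transcript of this chain, whereas tumor library 1 held 7.23 FPKM.

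As shares of the summed FPKM of the 5 heavy chain loci, the libraries differed in make-up as well as in amount. Because Myh1 and Myh3 share a locus and Myh2 has its interval, the shares of these genes depend on how fragments were assigned. The sum was 34.2 and 37.5 FPKM in wild type and 452, 60.2 and 38.0 FPKM in the tumors. Myh4 made up 50.5% and 51.4% of it in wild type and 9.21%, 4.47% and 1.45% in tumor libraries 1, 2 and 3. Myh4 was therefore the leading chain in both wild-type libraries and a minor one in all 3 tumors, tumor library 1 included. The locus of Myh1 and Myh3 took 38.4% and 39.4% in wild type and 76.5%, 70.2% and 50.9% in the tumors. Myh2 took 10.6% and 8.81% in wild type, 11.1% in tumor library 1, 24.3% in tumor library 2 and 46.6% in tumor library 3. The share of Myh2 in tumor library 1 thus stayed close to that of wild type, unlike in the other tumors. Myh8 took 0.475% and 0.324% in wild type and 1.58%, 0.914% and 0.895% in the tumors. Myh13 took 0.0387% and 0.0762% in wild type, 1.60% in tumor library 1, 0.126% in tumor library 2 and 0.105% in tumor library 3. The shares of 1 library add to a whole, so they do not move independently, and they were not tested.

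**Figure D2:**
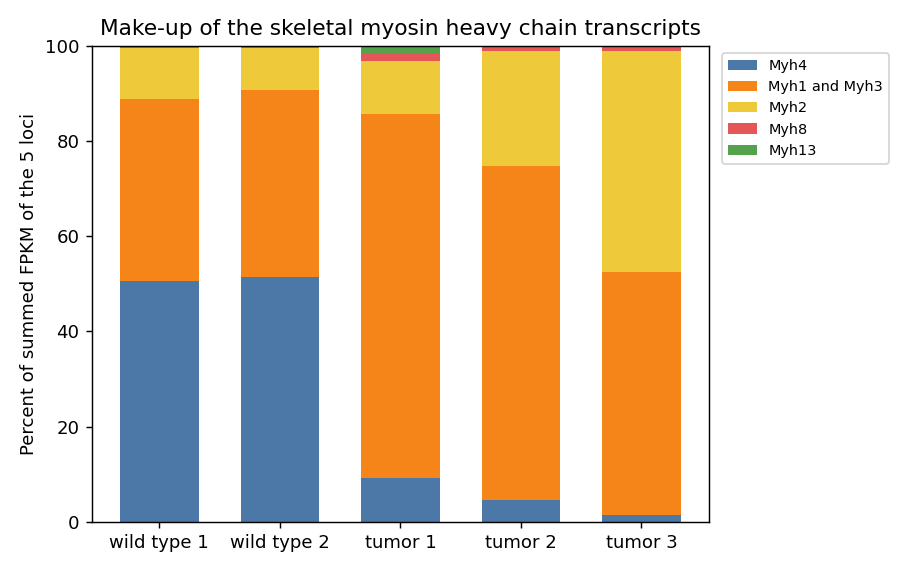
Make-up of the skeletal myosin heavy chain transcripts in each library, as the percent of the summed FPKM of 5 loci; each bar is 1 library and each colour a locus. Myh4 takes 50.5% and 51.4% of the wild-type bars and at most 9.21% of a tumor bar.

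The myosin light chain and thin filament genes were high in tumor library 1, and nearer to wild type in the others. Myl1, an essential light chain of fast fibers, measured 74.8 and 73.6 FPKM in the wild-type pair and 1930, 112 and 83.0 FPKM in the tumor libraries. Mylpf, the regulatory light chain of fast fibers, measured 1928, 107 and 139 FPKM in the tumors, compared with 134 and 135 FPKM in wild type. Outside tumor library 1, both differed little from wild type (log2 fold changes 0.47 and −0.075, adjusted p = 0.125 and 0.754). With it neither passed (3.32 and 2.48, adjusted p = 0.18 and 0.247). Acta1, skeletal muscle actin, lay above wild type in every tumor by 20.3-fold, 1.33-fold and 2.02-fold, and did not pass with all libraries (3.04, SE 1.43, adjusted p = 0.157) or without tumor library 1 (0.79, SE 0.26, adjusted p = 0.0901). The fast troponin genes were lower than wild type outside tumor library 1. Tnnt3, troponin T, measured 111 and 105 FPKM in the wild-type libraries, against 1669, 81.5 and 69.5 FPKM in the tumors. Tnni2, troponin I, was at 131 and 120 FPKM against 1477, 81.3 and 63.2 FPKM. Tnnc2, troponin C, was at 150 and 146 FPKM against 1748, 105 and 75.9 FPKM. For all 3 troponins, tumor libraries 2 and 3 were the lowest libraries, but none passed in edgeR without tumor library 1 (adjusted p = 0.0946, 0.0516 and 0.0827) and DESeq2 called only Tnni2 (adjusted p = 0.017). With all libraries their log2 fold changes were 2.57, 2.13 and 2.17 (adjusted p = 0.277, 0.337 and 0.325). Neb, nebulin, the giant protein that lines the thin filament, measured 2.52 and 3.91 FPKM in the wild-type pair and 112, 12.3 and 7.51 FPKM in the tumor libraries. All tumors exceeded wild type, and Neb was called higher without tumor library 1 (1.67, SE 0.31, adjusted p = 0.0339), though not with it (3.63, SE 1.36, adjusted p = 0.0966).

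Of the genes that bind and order the thick filament, the slow-type form was higher and the fast-type form lower in tumor libraries 2 and 3. Mybpc1, the slow-type myosin binding protein C, measured 121, 11.0 and 7.98 FPKM in the tumors, compared with 4.70 and 5.51 FPKM in wild type. Mybpc2, the fast-type form, measured 4.18 and 4.08 FPKM in the wild-type libraries, against 24.3, 0.791 and 0.964 FPKM in the tumors. Each tumor lay above wild type for Mybpc1, while for Mybpc2 tumor libraries 2 and 3 lay 4.70-fold below it on average. Without tumor library 1, Mybpc2 was called lower (−2.18, SE 0.25, adjusted p = 0.0194) and Mybpc1 did not pass (0.96, SE 0.23, adjusted p = 0.0515). With it neither passed (1.13, adjusted p = 0.617, and 3.27, adjusted p = 0.143). Ttn, titin, the spring that spans the sarcomere, measured 0.303 and 0.355 FPKM in the wild-type pair and 7.83, 0.647 and 0.308 FPKM in the tumor libraries, with tumor library 3 within the wild-type range. Ttn did not pass with (3.11, adjusted p = 0.186) or without tumor library 1 (0.51, adjusted p = 0.376).

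At the Z-disc, which anchors the thin filaments, the alpha-actinin genes differed in opposite directions in tumor libraries 2 and 3. Actn2, the alpha-actinin of all skeletal fibers and heart, measured 92.8, 9.10 and 8.49 FPKM in the tumors, compared with 3.32 and 3.09 FPKM in wild type. Actn3, the alpha-actinin of fast fibers, measured 7.66 and 8.05 FPKM in the wild-type libraries, against 7.02, 0.537 and 1.41 FPKM in the tumors. Actn3 was the only member with every tumor below every wild-type library. Without tumor library 1, Actn2 was called higher (1.51, SE 0.18, adjusted p = 0.0193) and Actn3 lower (−2.96, SE 0.55, adjusted p = 0.0342). With it, neither passed (3.57, SE 1.39, adjusted p = 0.104, and −1.34, SE 1.05, adjusted p = 0.359). Myoz1, a calcineurin-binding protein of fast fibers, measured 10.9 and 11.1 FPKM in the wild-type pair and 84.9, 3.47 and 1.65 FPKM in the tumor libraries, and was called lower without tumor library 1 (−2.04, SE 0.46, adjusted p = 0.0472) but not with it (1.503, adjusted p = 0.532). Tcap, which caps titin, and Ldb3, a PDZ protein of the Z-disc, lay above wild type in tumor library 2 and within or just under the wild-type values in tumor library 3. Tcap measured 34.6 FPKM in each wild-type library, against 722, 60.9 and 33.0 FPKM in the tumors. Ldb3 measured 7.09 and 6.24 FPKM in wild type, against 127, 9.38 and 6.89 FPKM. Neither passed with all libraries (3.03, adjusted p = 0.186, and 2.93, adjusted p = 0.173) or without tumor library 1 (0.49, adjusted p = 0.327, and 0.59, adjusted p = 0.112).

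Among the calcium handling genes, Pvalb differed most outside tumor library 1. Pvalb encodes parvalbumin, the cytosolic calcium buffer of the fastest fibers, which some neurons also make. It measured 451, 11.6 and 12.3 FPKM in the tumors, compared with 109 and 99.0 FPKM in wild type. Tumor libraries 2 and 3 thus agreed closely and lay 8.72-fold below wild type on average (−3.07, SE 0.14, adjusted p = 0.0121 without tumor library 1; 0.66, SE 1.73, adjusted p = 0.786 with it). Photoreceptor, retinal pigment epithelium and melanocyte marker lists were also lower in all tumors, at sums given with the other cell types, and their part in the difference was not tested. Atp2a1, the calcium pump of fast fibers, measured 52.4 and 55.9 FPKM in the wild-type libraries, against 491, 36.5 and 18.8 FPKM in the tumors. Casq1, the calcium store protein of fast fibers, was at 11.0 and 11.9 FPKM against 85.0, 6.49 and 2.74 FPKM. Both lay below wild type in tumor libraries 2 and 3 without passing the test (−0.92, adjusted p = 0.137, and −1.25, adjusted p = 0.127), and with tumor library 1 the values were 1.80 (adjusted p = 0.395) and 1.51 (adjusted p = 0.474). Ryr1, the calcium release channel, measured 1.17 and 1.34 FPKM in the wild-type pair and 14.1, 2.21 and 2.02 FPKM in the tumor libraries, and was called higher without tumor library 1 (0.81, SE 0.16, adjusted p = 0.0363) but not with it (2.34, adjusted p = 0.145). Cacna1s, the voltage sensor coupled to that channel, was at 1.49 and 1.27 FPKM against 14.7, 1.77 and 1.55 FPKM, a difference that did not pass (0.33, SE 0.24, adjusted p = 0.348 without tumor library 1; 2.18, adjusted p = 0.211 with it).

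The energy supply genes spread widely, from Mb above wild type in every tumor to Pygm far below it in tumor libraries 2 and 3. Mb, myoglobin, the oxygen carrier of oxidative fibers, measured 2948, 199 and 111 FPKM in the tumors, compared with 64.2 and 61.8 FPKM in wild type. It was the most abundant member in tumor libraries 1 and 2, and each tumor lay above wild type, but it did not pass in edgeR with (4.17, SE 1.77, adjusted p = 0.126) or without tumor library 1 (1.36, SE 0.34, adjusted p = 0.0557). DESeq2 called Mb higher in both settings (adjusted p = 0.00429 and 0.00526). Pygm, the glycogen phosphorylase of muscle, measured 108 and 113 FPKM in the wild-type libraries, against 109, 13.8 and 5.76 FPKM in the tumors. Despite its excess of other muscle transcripts, tumor library 1 held no more Pygm than wild type by FPKM. The other tumors lay 11.3-fold below wild type on average (−3.45, SE 0.51, adjusted p = 0.0252 without tumor library 1, and −1.31, SE 1.23, adjusted p = 0.44 with it). Ckm, the muscle creatine kinase, measured 101 and 93.1 FPKM in the wild-type pair and 884, 32.3 and 20.8 FPKM in the tumor libraries. It was called lower without tumor library 1 (−1.81, SE 0.27, adjusted p = 0.0249) but not with it (1.75, adjusted p = 0.476). Eno3, muscle enolase, was at 44.3 and 45.3 FPKM against 577, 39.6 and 26.4 FPKM, and did not pass with (2.29, adjusted p = 0.29) or without tumor library 1 (−0.39, adjusted p = 0.282).

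All 3 myogenic factors, the transcription factors that commit cells to muscle and drive fiber genes, lay above wild type in every tumor. Myog, myogenin, which acts as myoblasts differentiate and fuse, measured 14.6, 1.68 and 2.35 FPKM in the tumors, compared with 0 and 0.126 FPKM in wild type. On 2 wild-type and 335 tumor fragments its ratio was 108 (95% counting interval 29.7 to 895), with 28.7 (7.28 to 248) in tumor library 2 and 40.0 (10.4 to 342) in tumor library 3. Myog rose in edgeR with all libraries (6.56, SE 1.77, adjusted p = 0.0447) and without tumor library 1 (4.93, SE 1.04, adjusted p = 0.0417). Myod1, which acts earlier in myoblasts, measured 0.271 and 0 FPKM in the wild-type libraries, against 6.69, 0.864 and 1.27 FPKM in the tumors. Over the pooled tumors its ratio was 22.0 (9.94 to 60.7) on 6 wild-type fragments. By tumor library it was 49.5 (22.2 to 137), 6.37 (2.47 to 19.4) and 9.34 (3.79 to 27.6). Myf6, the factor that mature fibers keep, was at 1.07 and 1.08 FPKM against 42.2, 3.42 and 2.01 FPKM. Neither Myod1 (adjusted p = 0.0953) nor Myf6 (adjusted p = 0.127) passed in edgeR with all libraries, nor without tumor library 1 (adjusted p = 0.147 and 0.0943). DESeq2 called both higher with all libraries (adjusted p = 0.0128 and 0.0107) and neither without tumor library 1 (adjusted p = 0.193 and 0.171). In tumor library 3, which held the smallest share of muscle transcripts, Myog and Myod1 had 40 and 28 fragments, against 30 and 20 in tumor library 2. The counting intervals of these libraries overlapped for both genes, and the difference between them was not tested.

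Chrna1 and Trim63, linked to innervation and protein turnover, differed in opposite directions outside tumor library 1. Chrna1, the alpha subunit of the muscle acetylcholine receptor, measured 0.218 and 0.275 FPKM in the wild-type pair and 15.2, 2.18 and 1.25 FPKM in the tumor libraries. The ratio to wild type was 64.4 (95% counting interval 43.6 to 99.1), 9.19 (5.99 to 14.6) and 5.23 (3.28 to 8.57) in tumor libraries 1, 2 and 3, and it was called without tumor library 1 (2.84, SE 0.47, adjusted p = 0.0288) but not with it (4.70, SE 1.44, adjusted p = 0.0609). Trim63, a ubiquitin ligase that marks sarcomere proteins for breakdown, measured 10.03, 1.27 and 1.43 FPKM in the tumors, compared with 6.73 and 9.02 FPKM in wild type. Like Pygm and Actn3 it was near wild type in tumor library 1 and far below in the others, where it was called lower (−2.49, SE 0.30, adjusted p = 0.0200; −0.84, adjusted p = 0.546 with tumor library 1).

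**Figure D3:**
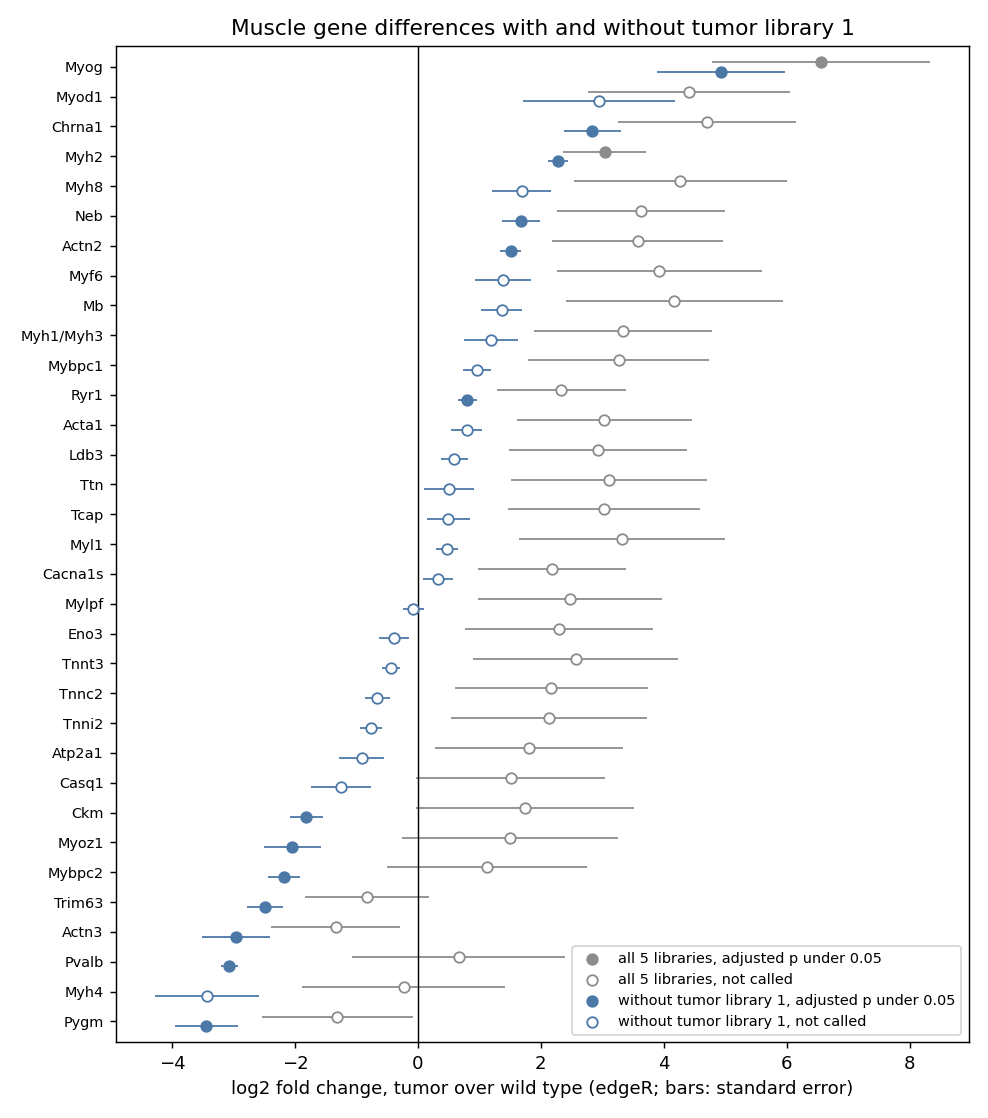
log2 fold change of tumor over wild type for the 33 tested member loci from edgeR, with all 5 libraries (grey) and without tumor library 1 (blue); bars are standard errors and filled points have an adjusted p under 0.05. With all libraries 2 loci are called, and without tumor library 1 there are 6 called higher and 7 called lower, with narrower bars.

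A level relative to other muscle transcripts takes account of their total amount, but not of transcripts from other cells. Each gene was therefore also expressed as a percent of the summed FPKM of Acta1, Mylpf and Tnnt3, with no test. Ckm was not in this sum. The reference genes themselves shifted. Tnnt3 made up 32.1% and 31.9% of the sum in wild type and 30.2%, 25.9% and 17.4% in the tumors. Acta1 went from 29.0% and 27.1% in wild type to 34.9%, 40.0% and 47.9% in the tumors. Actn3 came to 2.23% and 2.44% in wild type and to 0.127%, 0.171% and 0.354% in tumor libraries 1, 2 and 3. Pygm came to 31.4% and 34.2% against 1.97%, 4.38% and 1.44%. Pvalb came to 31.6% and 30.0% against 8.18%, 3.68% and 3.08%. On this scale tumor library 1 had the low Actn3, Pygm and Pvalb of the other tumors. Myog came to 0% and 0.0382% in wild type and to 0.265%, 0.534% and 0.590% in the tumors, and Mb to 18.7% in each wild-type library against 53.4%, 63.2% and 27.7%. Tumor library 1 thus resembled the other tumors in Myog and Mb as well. Myh2 did not follow, at 1.05% and 1.00% in wild type, 0.906% in tumor library 1, and 4.66% and 4.44% in the others. Ryr1 likewise came to 0.340% and 0.405% in wild type, 0.255% in tumor library 1, and 0.704% and 0.507% in the others. The plot of folds over wild type sets tumor library 1 beside the other tumors for every member.

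**Figure D4:**
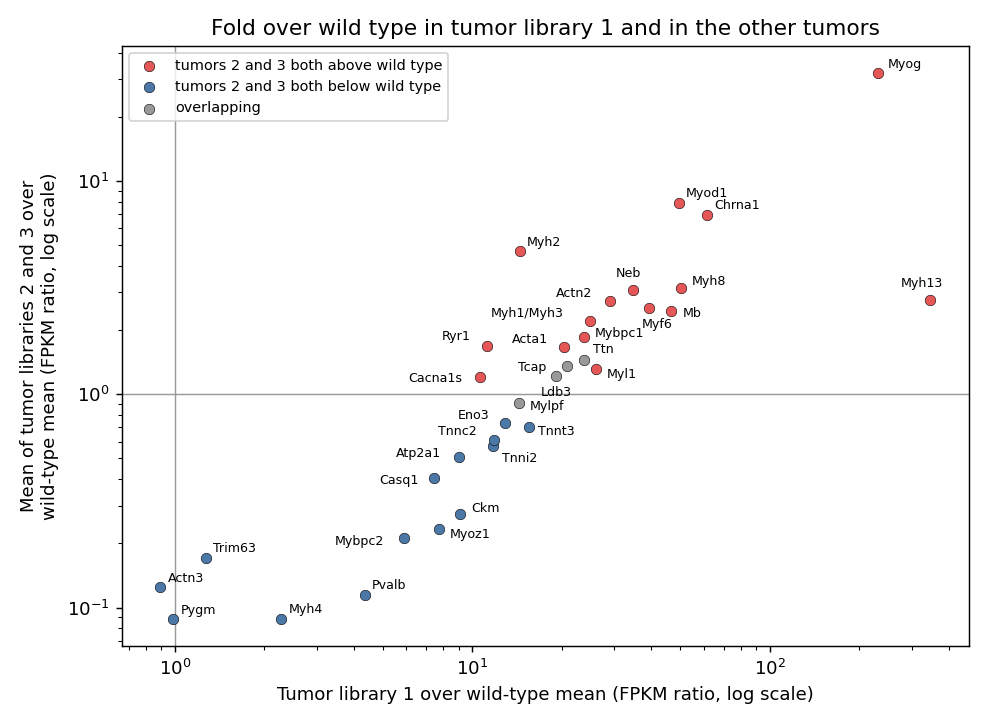
Fold over the wild-type mean (FPKM ratio, log axes) of each member locus in tumor library 1 (horizontal) and in the mean of tumor libraries 2 and 3 (vertical); colours give the position of tumor libraries 2 and 3 against wild type, and both axes share the same wild-type libraries. Actn3 and Pygm lie below 1 on both axes and Myog lies farthest above wild type on the vertical axis, with 16 loci above wild type, 14 below and 4 overlapping in tumor libraries 2 and 3.

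Other genes of the muscle program were mostly highest in tumor library 1 too. Their counts read against 18.7% of all tested loci called higher, 15.4% called lower and 17.5% highest in that library. The last share was counted on TMM-scaled fragment counts, whereas the highest library of each listed gene was taken by FPKM. Counts without tumor library 1 read against 15.9% of all tested loci called higher and 13.7% called lower. Of 26 other skeletal sarcomere genes, all tested, 3 rose and 0 fell, and 26 were highest in tumor library 1. Without that library 7 were called higher and 0 lower. Their summed level was 308 and 316 FPKM in wild type and 2241, 636 and 696 FPKM in the tumors. Flnc, filamin C of the Z-disc, rose by 3.76 (SE 0.45, adjusted p = 0.00833), Tpm1, a tropomyosin that many cell types also make, by 1.94 (SE 0.40, adjusted p = 0.0233), and Xirp1, an actin-binding repair protein, by 3.64 (SE 0.99, adjusted p = 0.0453). Of 12 triad and calcium genes 1 rose: Jph2, which ties the T-tubule to the calcium store, measured 8.85 and 8.61 FPKM in the wild-type libraries, against 33.2, 27.9 and 31.7 FPKM in the tumors (1.87, SE 0.16, adjusted p = 0.00485). Without tumor library 1, 2 triad and calcium genes were called higher and 1 lower. Of 12 other fast fiber energy genes 0 passed with all libraries and 3 were called lower without tumor library 1. One of the latter was Cox8b, a respiratory chain subunit of muscle and brown fat, which measured 1738 and 1169 FPKM in the wild-type pair and 1146, 70.1 and 35.2 FPKM in the tumor libraries. Among 9 tested slow fiber genes 2 rose, Myoz2 (4.10, SE 1.14, adjusted p = 0.0477) and Tpm3 (1.94, SE 0.24, adjusted p = 0.00836), the latter a gene with broad non-muscle expression. Without tumor library 1, 4 of 8 slow fiber genes were called higher and 1 lower. Of 3 tested further myosin heavy chains 1 fell, Myh14, which encodes a nonmuscle myosin (−3.69, SE 0.94, adjusted p = 0.0392).

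Genes of muscle precursors and of the nerve-muscle contact passed in part, in both directions for the latter. Of 8 tested satellite cell and myoblast genes 3 rose and 0 fell. Without tumor library 1 there were 3 called higher and 1 lower, Itga7. With all libraries Pax3, Ncam1 and Itga7 had negative log2 fold changes that did not pass (−0.99, −0.39 and −1.04). Pax7 had no fragments in wild type and 8, 0 and 3 in the tumors. Myf5 had 1 in each wild-type library and 20, 1 and 2 in the tumors. Neither of these 2 genes was tested. Cdh15, M-cadherin of satellite cells and myoblasts, measured 2.48, 1.81 and 0.341 FPKM in the tumors, compared with 0.056 and 0.091 FPKM in wild type. Mef2c, a transcription factor that acts with the myogenic factors and also in other tissues, rose by 2.38 on the log2 scale (SE 0.63, adjusted p = 0.0423). Among 6 tested neuromuscular junction genes 1 rose and 1 fell. Chrnd, the delta subunit of the acetylcholine receptor, had 0 fragments in wild type and 127, 27 and 18 in the tumors. Against a floor of 3 fragments per wild-type library, the pooled tumors were at least 18.5-fold higher. Tumor library 1 held most of the pooled fragments, so this bound does not apply to each tumor alone. Rapsn, which clusters that receptor, measured 50.7 and 44.4 FPKM in the wild-type libraries, against 8.61, 3.12 and 10.3 FPKM in the tumors (−2.65, SE 0.51, adjusted p = 0.0203). Of 7 tested atrophy and stress genes, Cdkn1a, a cell cycle inhibitor active in many cell types, rose (3.04, SE 0.68, adjusted p = 0.0293) and Foxo3, a transcription factor of the atrophy program, fell (−0.75, SE 0.17, adjusted p = 0.031). Without tumor library 1 the calls of Cdkn1a (adjusted p = 0.0624), Cdh15 (adjusted p = 0.0744) and Myh14 (adjusted p = 0.103) ended. The other calls over all libraries named from these muscle lists held.

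Markers of other muscle and of neighbouring tissue were measured in the same libraries, and their part in the muscle gene differences was not tested. Of 5 tested cardiac markers 2 rose. Tnnt2, troponin T of heart and of developing skeletal muscle, measured 0 and 0.089 FPKM in the wild-type pair and 19.9, 2.71 and 8.35 FPKM in the tumor libraries. Tnni3, on a locus shared with another gene, was the other. Of 8 smooth muscle markers 3 fell (Myh11, Lmod1 and Smtn), with sums of 698 and 666 FPKM in wild type and of 429, 540 and 660 FPKM in the tumors. Of 5 tendon markers 2 fell (Tnmd and Thbs4), with sums of 422 and 438 against 87.4, 124 and 126 FPKM. Of 3 tested adipocyte markers 0 passed, and 4 of the 6 markers were at 0 in tumor library 2. The list summed to 18.2 and 14.2 FPKM in wild type and to 144, 13.8 and 51.0 FPKM in the tumors. Fabp4 alone gave 138 FPKM of the sum in tumor library 1. Adipoq, Plin1, Cidec and Cfd were highest in tumor library 3, and Lep in tumor library 1. Of 6 Schwann cell markers 0 passed (sums 260 and 257 against 226, 339 and 205 FPKM). Of 3 tested lacrimal and Harderian gland markers 1 fell, the locus of Mlph, a melanosome transport gene that pigment cells also use. The list summed to 122 and 115 FPKM in wild type against 8.36, 23.2 and 22.7 FPKM in the tumors. Nearly all of it was Mlph and Aqp5. Bhlha15 was at most at 0.791 FPKM, and Lcn11 and Prol1 were at 0 in every library, so the sums do not measure gland content.

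Most eye and pigment markers fell, and most immune markers rose, in the tumors. All 7 photoreceptor markers, 5 of 6 retinal pigment epithelium markers (sums 10620 and 10470 FPKM against 7.53, 62.2 and 10.6 FPKM) and all 6 melanocyte markers fell. Of 6 macrophage markers 4 rose, with sums of 476 and 516 FPKM in wild type and of 2818, 1443 and 7258 FPKM in the tumors. All 5 T cell markers rose, and 3 of 6 fibroblast markers did (sums 1722 and 1917 against 3262, 2305 and 4155 FPKM). Of 5 endothelial markers 1 fell (Vwf), and of 6 epithelial markers 1 rose (Epcam) and 1 fell (Krt18). None of the macrophage or T cell markers was highest in tumor library 1.

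Some genes outside muscle were also far higher in tumor library 1 than in any other library. For a ranking, the highest library and its gap to the next were taken on log2 TMM-scaled fragment counts, not on FPKM. Only loci highest in tumor library 1 were ranked, so large gaps in it follow from that choice. The other libraries were not ranked in the same way. In the ranking, 1557 named loci were highest in tumor library 1 and reached 10 FPKM in some library, 29 of them member loci. The 100 ranked loci with the largest gap to the next library included 21 member loci and 29 genes of the other lists. The 5 largest gaps outside those lists, with no test, were those of Scd3, Elovl3, Bpifa6, Psapl1 and Mc5r. Scd3, a fatty acid desaturase, was at 242 FPKM in tumor library 1 and at 0.268 to 1.51 FPKM elsewhere. Elovl3, a fatty acid elongase, was at 65.3 FPKM there and at most at 1.03 FPKM elsewhere. Bpifa6 was at 963 FPKM against at most 17.5 FPKM, Psapl1 at 189 FPKM against at most 5.31 FPKM, and Mc5r, a melanocortin receptor of sebaceous and other exocrine glands, at 10.6 FPKM against at most 0.267 FPKM. These genes are not muscle genes and exceeded every member in their gap, the largest member gap being that of Myl1 at rank 11. What they share with the muscle genes of that library was not tested.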

How the data were processed

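RNA sequencing of 2 wild-type uvea and 3 Lats1/2-mutant eye tumor libraries was analysed from the deposited tables. The submitters' processing notes name TopHat2 2.0.9, Cufflinks 2.2.1, Cuffdiff and the build mm10, and the labels' protocols name Trizol and a TruSeq RNA kit. The sources used here do not give the annotation, filters or strand setting, so antisense or overlapping reads cannot be told apart. The authors deposited an estimated count of fragments per locus and library, not scaled, and an FPKM scaled by them, per the file headers. The authors' FPKM per group equals the mean of these replicates within 1% and was not used further. The table's condition names give the group. Its replicate numbers are not tied to those of the labels and only name libraries.

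Libraries of a pair differed by a chi-square per degree of freedom of 5.43 (wild type) and 102 to 129 (tumors), so none was dropped. The 1627 unnamed loci (1.52% to 4.37% of fragments) stayed out. Estimated counts were rounded and fitted with edgeR 4.0.16 (R 4.3.3): filterByExpr with a minimum count of 10, TMM scaling, quasi-likelihood F-test without covariates, Benjamini-Hochberg adjustment over 15241 loci. An adjusted p under 0.05 is a call. Tests are two-sided, "rose" and "fell" refer to this fit over all libraries, and the script was tested on simulated data. The members and gene lists were chosen with earlier results of these data known. All members are named. Of each further list, up to 3 called genes with the smallest p, or else the 3 with the highest level, were eligible to be named. Further listed genes are named where a sum rests on few genes or where others differ from those named. Alternatives were DESeq2 1.42.0, limma 3.58.1 on log2(FPKM + 1) and log2(FPKM + 0.1), library size alone, no filter, each library left out and a replicate block. Ratios on few fragments have exact 95% counting intervals. Same-numbered libraries correlated by 0.013 and 0.027 in their deviations from the group means. The deviations of the wild-type libraries mirror each other, so this check could not exclude a pairing. The main fit used none. Promoters are RefSeq windows (GRCm38.p6), and 27 of 35 members matched.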

Additional observations from a re-analysis of the deposited data

How the results depend on the processing

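Tumor library 1 decided most of the muscle gene results. With each library left out in turn, members called higher ranged from 0 (without wild-type library 1 or 2) to 6 (without tumor library 1), members called lower from 0 to 7, and the median log2 fold change of the members from 0.47 to 3.08. In the fits without a wild-type library, in which the lone library is assumed to vary like the tumors, edgeR called 0 loci of any kind (4085 and 3996 at an unadjusted p under 0.05). Over the same set of fits, calls over all loci ranged from 0 to 3032 higher and from 0 to 3112 lower. DESeq2 called 17 members higher where edgeR called 2. With tumor library 1 left out, a setting chosen after seeing the data, DESeq2 called 9 higher and 9 lower, with a median of 0.44. With limma on log2(FPKM + 1), 1 member was called. The replicate block, over the 4 libraries whose table number occurs in both groups, called 1408 loci higher and 1207 lower. Its 1 member call was Myod1 (adjusted p = 0.0452), those of Myh2 and Myog ended, and Pvalb turned to −0.43. Library size alone and no filter on low counts moved no member across its threshold or sign.

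Signs changed at 12 of 33 member loci in at least 1 setting. Leaving out 1 library at a time, the lowest value being the one without tumor library 1, the log2 fold change ranged for Myh4 from −3.43 to 0.33, Mylpf from −0.075 to 2.99, Tnnt3 from −0.44 to 3.08, Tnni2 from −0.76 to 2.65, Tnnc2 from −0.66 to 2.69, Mybpc2 from −2.18 to 1.66, Myoz1 from −2.04 to 2.05, Atp2a1 from −0.92 to 2.32, Casq1 from −1.25 to 2.04, Pvalb from −3.07 to 1.21, Ckm from −1.81 to 2.28 and Eno3 from −0.39 to 2.81. DESeq2 without tumor library 1 gave −0.10 for Mylpf, −0.47 for Tnnt3, −0.79 for Tnni2, −0.69 for Tnnc2, −2.21 for Mybpc2, −2.08 for Myoz1, −0.95 for Atp2a1, −1.29 for Casq1, −3.10 for Pvalb, −1.84 for Ckm and −0.42 for Eno3. With limma on log2(FPKM + 0.1) and log2(FPKM + 1), in that order, the values were −0.57 and −0.20 for Mybpc2, −0.45 and −0.25 for Myoz1, −1.37 and −1.31 for Pvalb and −0.20 and −0.18 for Ckm. DESeq2 gave no adjusted p for Pvalb and Ckm over all 5 libraries. Levels of the myogenic factors in wild type rest on 0 to 6 fragments for Myod1 and Myog, which limits their folds.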
